A study of Homo sapiens with 24 samples.

Results

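Clones of the human fibrosarcoma line HT1080 that carry a knockout of Rap1 were compared with wild-type clones of the same line over every probe of an Illumina expression array. HT1080 is an established adherent tumour line of connective tissue origin. The 8 HT1080 arrays, chosen by line and genotype labels, are part of a set of 24 arrays from 3 human lines. Knockout clones 8 and 21 and wild-type clones 2 and 9 had 2 arrays each, called A and B here, and no treatment was named for any of them. The clones had been made with TALENs, nucleases built to cut one chosen DNA sequence, and a clone is the progeny of a single cell, so differences between single cells that founded the clones are part of every comparison. Whether arrays A and B of a clone came from separate cultures is not stated in the labels, so A and B were averaged and the clone was the replicate (n = 2 and 2). All 47323 probes were compared, of which 30113 carried 1 gene symbol.

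Rap1, the product of TERF2IP, is the shelterin subunit that reaches telomeres by binding TRF2. Shelterin hides chromosome ends from DNA damage signalling and controls the access of telomerase. Outside telomeres, mammalian Rap1 is known to bind other chromosomal sites and, in the cytoplasm, to associate with the kinase that activates NF-kB, a family of transcription factors that drives inflammatory genes. In mice, loss of Rap1 is known to leave telomeres largely protected and to alter metabolic gene expression.

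The deposited value of a probe was its log difference from the median of that probe over the 8 HT1080 arrays, and the base of the log, which the sources used here do not give, was taken as 2. A value of 1 then means a signal 2-fold above that median, and neither a level nor the presence of a cell type marker can be read from it. The arrays of a clone resembled each other closely, with 2 to 10 probes at least 2-fold apart, whereas arrays of different clones had 234 to 518 such probes. The median of all probe differences between knockout and wild type was -0.037, a slight downward shift of the knockout arrays.

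TERF2IP was measured by 1 probe, on chromosome 16, and served as the check of the labels. Its 4 wild-type values lay between 1.11 and 1.25. The knockout arrays read -1.68 and -1.79 (clone 8) and -1.11 and -1.20 (clone 21). The genotypes were widely separated, with clone 8 the lower of the knockout clones. The difference was -2.61 ± 0.20 (SE), a signal 6.09-fold lower, and did not pass the threshold of an adjusted p of 0.05 over all probes (limma, adjusted p = 0.108). An exact two-sided permutation test of the clone values gave p = 0.333, the smallest value that 2 against 2 clones allow. The position of the probe relative to the TALEN cut is not given in the sources used here.

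The other shelterin genes differed far less. TERF1, which encodes TRF1, a protein that binds double-stranded telomeric DNA, stood at 0.27 and 0.086 in the wild-type clones and at -0.22 and -0.12 in the knockout clones, a difference of -0.35 ± 0.11, but its other probes gave -0.070 and -0.015. TINF2, which bridges TRF1 and TRF2, differed by -0.12 ± 0.091, again with no overlap between the clones. The clones overlapped for TERF2, which encodes the Rap1 anchor TRF2 (-0.042 ± 0.12), for ACD, which encodes TPP1 (0.12 ± 0.16), and for POT1, which binds single-stranded telomeric DNA (0.10 ± 0.13, with other probes at -0.090 and -0.076). None of these 5 genes passed, and the signs for TERF2, ACD and POT1 turned when 1 clone was left out.

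CDCP1 and PTGR1 were the genes called across the whole array. CDCP1 encodes a cell surface glycoprotein that recruits Src family kinases and is known from adhesion and invasion of tumour cells. Its leading probe, on chromosome 3, gave wild-type values of -1.73 and -1.66 (clone 2) and -1.93 and -1.92 (clone 9). Its knockout values were 1.66 and 1.72 (clone 8) and 1.99 and 2.00 (clone 21). Every knockout array was thus more than 3 log2 units above every wild-type array, and arrays of a genotype differed by far less. CDCP1 rose by 3.65 ± 0.14 (SE), or 12.6-fold (limma, adjusted p = 0.0175), and its other probes stood at 2.64, 2.09 and 1.30, each with no overlap between the genotypes.

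PTGR1 encodes a reductase that inactivates leukotrienes and prostaglandins and detoxifies reactive aldehydes. Its leading probe gave wild-type values of -1.08 and -0.97 (clone 2) and -1.02 and -1.04 (clone 9). Its knockout values were 0.97 and 1.06 (clone 8) and 1.06 and 1.08 (clone 21). Within each genotype the clones were nearly level, at most 0.051 apart. PTGR1 rose by 2.07 ± 0.087, or 4.2-fold (limma, adjusted p = 0.0175), and its other probe stood at 1.81 ± 0.100 (adjusted p = 0.0529). The share of all probes called was 0.00423% higher and 0% lower. In limma, 2 probes passed and 2403 of 47323 had an unadjusted p under 0.05. That is close to the share that a cut-off of 0.05 passes when nothing differs. In limma, the call on CDCP1 was lost without knockout clone 8 (adjusted p = 0.127), and that on PTGR1 without clone 8 (adjusted p = 0.127) or clone 21 (adjusted p = 0.142). Averaging the probes of a gene also lost both calls (limma, adjusted p = 0.398 for CDCP1 and 0.0999 for PTGR1).

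The RefSeq promoters of these called genes, from 250 bases before to 50 bases after the start of the transcript in GRCh38.p14, are shown because they are the stretches in front of the genes that rose. CDCP1 lies on the minus strand (chr3:45146329-45146628) and PTGR1 on the minus strand as well (chr9:111599382-111599681), and each is written 5′ to 3′ in the direction of transcription.
CDCP1: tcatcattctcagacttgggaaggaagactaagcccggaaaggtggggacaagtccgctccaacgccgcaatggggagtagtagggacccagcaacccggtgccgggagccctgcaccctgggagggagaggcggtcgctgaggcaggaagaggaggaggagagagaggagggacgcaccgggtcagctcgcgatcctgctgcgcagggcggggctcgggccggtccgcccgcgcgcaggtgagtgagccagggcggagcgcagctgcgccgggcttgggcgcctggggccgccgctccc
PTGR1: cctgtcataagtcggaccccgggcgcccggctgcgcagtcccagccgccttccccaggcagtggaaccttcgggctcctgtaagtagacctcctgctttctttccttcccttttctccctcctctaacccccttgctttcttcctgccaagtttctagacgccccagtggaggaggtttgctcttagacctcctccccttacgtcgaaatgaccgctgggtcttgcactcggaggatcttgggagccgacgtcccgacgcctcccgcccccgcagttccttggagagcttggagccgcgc
Motifs were searched on both strands, and neither promoter held any of the 3 searched, so both are in lower case throughout. They were the NF-kB consensus, found in 14.0% of the 35116 promoters of the table, the AP-1 element TGANTCA, found in 7.71%, and the antioxidant response element TGACNNNGC, the motif of the stress factor NRF2, found in 13.3%. That says only that these letters are not in these windows. PTGR1 is a known NRF2 target, but of the 45 probes of the NRF2 target list 24 were higher and 21 lower, with a median difference of 0.0054. Apart from PTGR1, the list's largest differences without overlap were those of the peroxiredoxin PRDX1 (0.21 ± 0.10) and the aldo-keto reductase AKR1C2 (-0.20 ± 0.088, with its other 5 probes between -0.13 and -0.0066). PRDX1 stood at 0.12 without knockout clone 8.

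**Figure D1:**
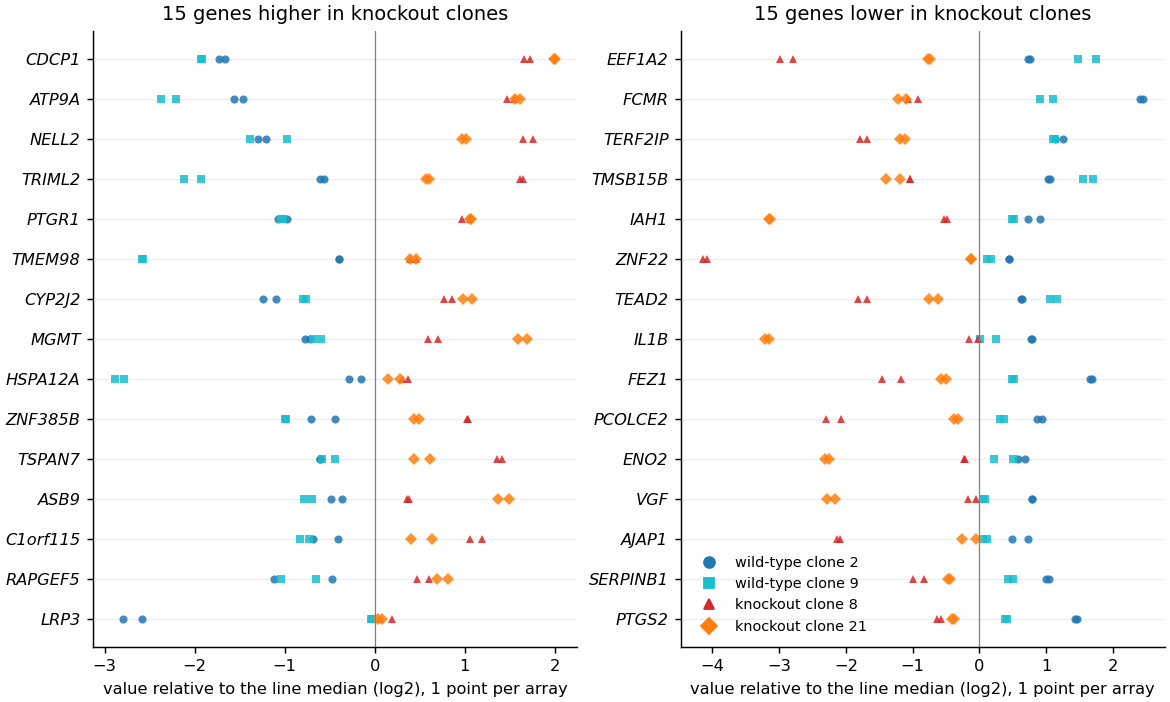
Values of the 15 genes with the largest higher differences and the 15 with the largest lower differences in knockout clones, 1 point per array, on the log2 scale relative to the median of the HT1080 arrays (x axis). CDCP1, PTGR1 and TERF2IP form compact groups by genotype, whereas for ZNF22, IL1B, HSPA12A and LRP3 a single clone stands far from the other clones.

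In 14 probes every knockout clone stood at least 2-fold above every wild-type clone, and in 9 probes at least 2-fold below. These are 0.0296% and 0.019% of all probes, and they stand for 11 and 9 genes. Besides CDCP1 and PTGR1, the higher genes were ATP9A, NELL2, TRIML2, CYP2J2, MGMT, ZNF385B, TSPAN7, C1orf115 and RAPGEF5. The lower genes were EEF1A2, FCMR, TERF2IP, TMSB15B, IAH1, TEAD2, FEZ1, ACOT1 and ACOT2. This count was chosen after the values were seen.

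ATP9A, a flippase of the inner membranes that moves phospholipids between leaflets, stood between -2.37 and -1.47 on the wild-type arrays and between 1.47 and 1.62 on the knockout arrays. That is a wider separation than the one of PTGR1, with wild-type clone 9 the lowest. The difference was 3.45 ± 0.25 (limma, adjusted p = 0.108), but the gene's other probes gave 0.044 and -0.11. NELL2, a secreted glycoprotein best known from neurons, read -1.25 and -1.18 in the wild-type clones and 1.70 and 0.99 in the knockout clones (2.56 ± 0.23). CYP2J2, a cytochrome P450 that makes epoxides from arachidonic acid, read -1.17 and -0.78 against 0.81 and 1.03 (1.90 ± 0.16). RAPGEF5, an exchange factor for Rap GTPases, which share no more than a name with the telomere protein, read -0.79 and -0.85 against 0.54 and 0.75 (1.46 ± 0.11). Clones of a genotype lay close together for CYP2J2 and RAPGEF5, at most 0.38 apart. The wild-type arrays of RAPGEF5 were less even, at -1.11 and -0.47 in clone 2 and at -1.04 and -0.65 in clone 9.

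MGMT, the DNA repair enzyme that removes alkyl groups from guanine, was higher in both knockout clones but unequally, at 0.65 in clone 8 and 1.64 in clone 21 against -0.74 and -0.64 in the wild-type clones (1.83 ± 0.31). TSPAN7, a tetraspanin, showed the reverse order of the knockout clones, with 1.38 in clone 8 and 0.53 in clone 21 against -0.61 and -0.51 (1.51 ± 0.27), and its other probe gave 0.27. For ZNF385B, a zinc finger gene, knockout values were 1.03 and 0.47 against -0.57 and -0.99 (1.53 ± 0.23), with other probes at 1.31 and 0.0099. TRIML2 stood at 1.63 and 0.59 against -0.59 and -2.03 (2.41 ± 0.54), so that the clones of each genotype were over 2-fold apart. C1orf115 stood at 1.13 and 0.52 against -0.54 and -0.78 (1.48 ± 0.21).

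Among the lower genes, TMSB15B, a thymosin of the family that binds actin monomers, read 1.04 and 1.63 in the wild-type clones and -1.03 and -1.30 in the knockout clones (-2.50 ± 0.21). Its other probes gave -1.10, -1.02 and -0.034. The near-identical neighbour TMSB15A was higher by 0.89 ± 0.38, with wild-type clone 2 alone at -1.30 and a difference of 0.28 without it, and probes of such paralogs may not be specific. FCMR, the Fc receptor for IgM, read 2.43 and 1.01 against -0.99 and -1.16 (-2.79 ± 0.44). EEF1A2, the translation elongation factor of muscle and neurons, read 0.75 and 1.62 against -2.89 and -0.75 (-3.00 ± 0.69). TEAD2, a DNA-binding partner of YAP in the Hippo pathway, read 0.63 and 1.11 against -1.75 and -0.69 (-2.09 ± 0.36). For EEF1A2 and TEAD2 the lowest clone was knockout clone 8, and for FCMR the highest was wild-type clone 2. FEZ1, an adaptor of kinesin motors, read 1.67 and 0.51 against -1.31 and -0.53 (-2.01 ± 0.43), and its other 3 probes were lower as well, 2 of them by -0.64 and -0.60.

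ACOT1 and ACOT2, neighbours on chromosome 14 that encode a cytosolic and a mitochondrial acyl-CoA thioesterase, were the most even of the lower genes. ACOT1 read between 0.55 and 0.77 on the wild-type arrays and between -0.79 and -0.55 on the knockout arrays (-1.31 ± 0.088, limma, adjusted p = 0.106). ACOT2 read between 0.46 and 0.88 against -0.99 to -0.46 (-1.28 ± 0.099, limma, adjusted p = 0.116). The genes are near-identical in sequence, their other probes gave -0.039 and -0.21, and their probes may report the same transcript. In the list of fatty acid metabolism and acyl-CoA thioesterases as a whole, 31 probes were higher and 36 lower with a median of -0.013. PPARGC1A, a coactivator of mitochondrial and fatty acid genes, stood at -0.50 ± 0.11 and the acyl-CoA synthetase ACSL5 at 0.41 ± 0.10. The other probes of ACSL5 gave -0.19, -0.12, -0.063 and 0.031, so 3 of 4 had the opposite sign.

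Many large differences rested on single clones. ZNF22, a zinc finger gene on chromosome 10, read -4.11 in knockout clone 8 and -0.12 in knockout clone 21, next to 0.44 and 0.15 in the wild-type clones. Its other probe differed by -2.17, next to -2.41 ± 1.20 for the leading probe. The matrix gene PCOLCE2, an enhancer of procollagen cleavage, read -2.19 in clone 8 and -0.35 in clone 21, and the adhesion gene AJAP1 -2.11 and -0.16. In these genes clone 21 stood closer to the wild-type clones than to clone 8. Clone 21 was the low one for IL1B, the cytokine interleukin 1 beta, which read -3.18 in clone 21 and -0.084 in clone 8. It was also the low clone for the esterase gene IAH1 (-3.14 against -0.50), the enolase ENO2 (-2.28 against -0.22) and the neuropeptide precursor VGF (-2.23 against -0.11).

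Other differences rested on a low wild-type clone. TMEM98, a membrane protein, read -2.58 in wild-type clone 9 and -0.39 in clone 2, next to 0.43 in both knockout clones, and its other probe gave 0.41 against the leading 1.92 ± 0.66. HSPA12A, a distant member of the HSP70 chaperones, read -2.83 in clone 9 and -0.22 in clone 2, and its other probes gave -0.12 and -0.046. LRP3, of the LDL receptor family, read -2.69 in wild-type clone 2 and -0.037 in clone 9, next to 0.13 and 0.060 in the knockout clones. The remaining large differences were those of ASB9, a substrate adaptor of a ubiquitin ligase (1.49 ± 0.34), the protease inhibitor SERPINB1 (-1.43 ± 0.23) and PTGS2 (described with the NF-kB genes). The distance between the nearest clones of opposite genotype was at least 50% of the difference for 19 of the 30 genes, 11 higher and 8 lower. These 30 genes had 23 further probes, of which 20 shared the sign of the leading probe and 9 showed 50% or more of its difference.

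**Figure D2:**
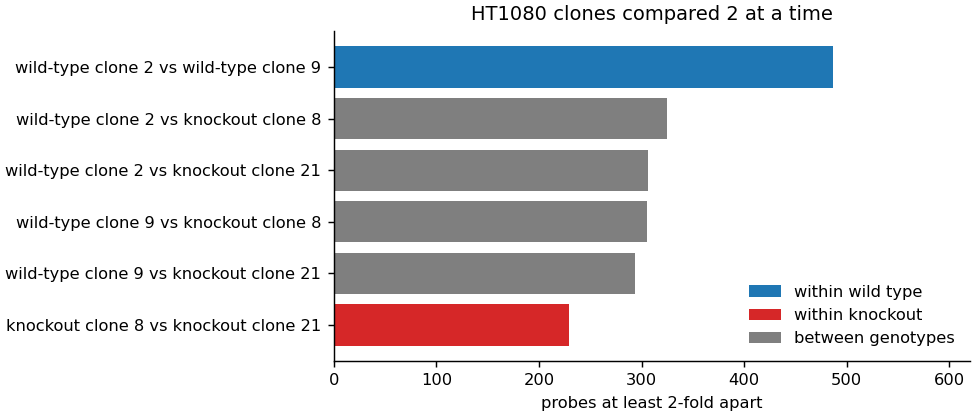
Number of probes at least 2-fold apart between each pair of HT1080 clones (x axis), with pairs of the same genotype in colour. The wild-type clones differ from each other at 487 probes and the knockout clones at 229, and pairs of opposite genotype at 294 to 325.

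Across the array, 51 probes were at least 2-fold higher in knockout than in wild-type clones (0.108% of all) and 65 at least 2-fold lower (0.137%). Of these 116 probes, 80 had no overlap between the genotypes and 36 had. The same distance was more common between the wild-type clones themselves, at 487 probes, of which 301 were higher in clone 2. Knockout and wild-type clones compared one by one differed at 294 to 325 probes, and the knockout clones from each other at 229. Genotypes without overlap were common, with 13.7% of the probes with 1 symbol higher in each knockout clone than in any wild-type clone and 22.9% lower. Over all probes this split was 31.7% higher against 68.3% lower, and 42.1% against 57.9% once each array had been centred on its own median. Counts of list members are read against these shares below. Since the lists and genes were compiled with earlier results from these arrays known, their counts are descriptions, with no test of a list.

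**Figure D3:**
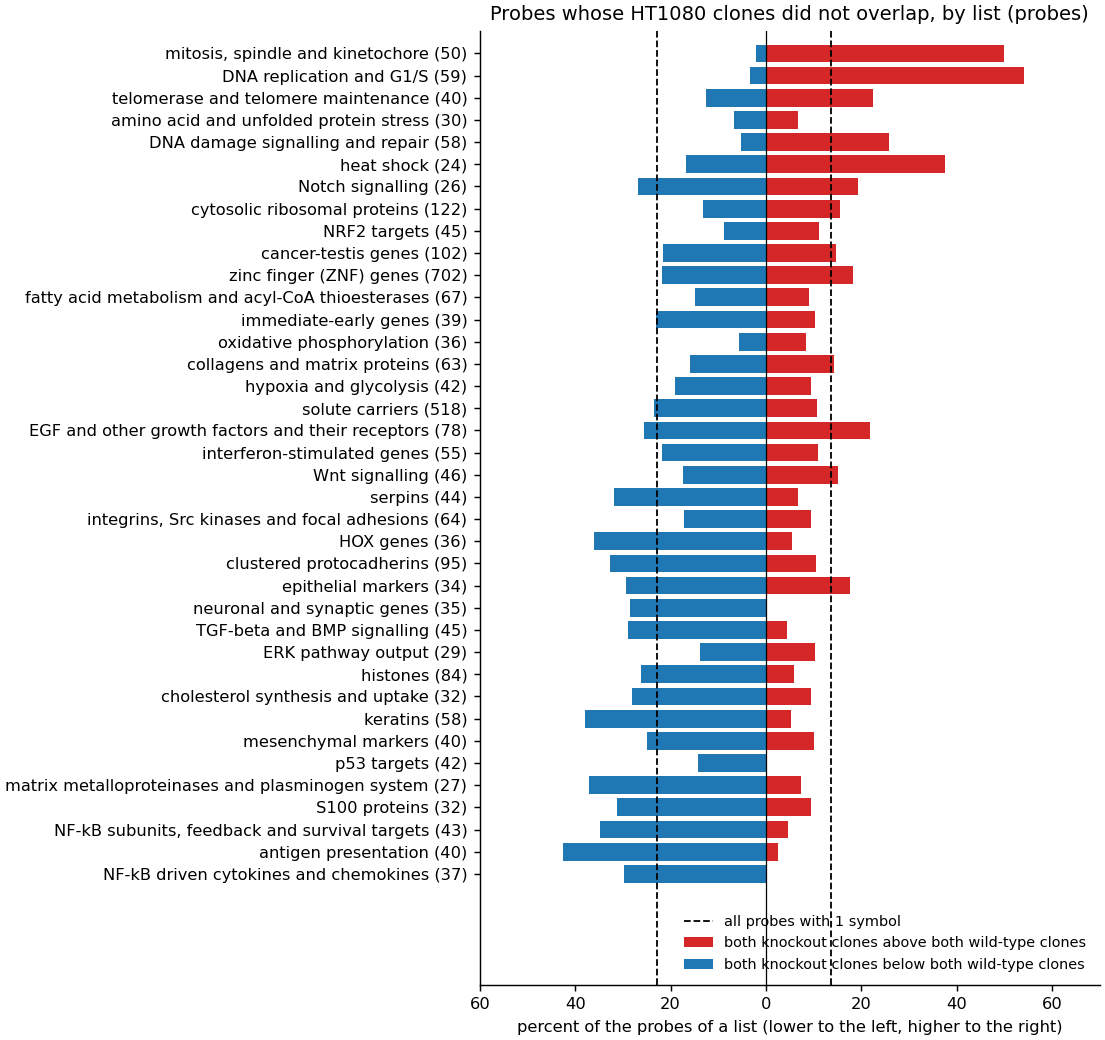
Percent of the probes of each list with at least 20 probes whose knockout clones both lay above (right, red) or both below (left, blue) the wild-type clones, with probe numbers in brackets. Dashed lines mark 13.7% and 22.9%, the shares among all probes with 1 symbol, and replication and mitosis stand out to the right of the line.

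Genes of proliferation were described by lists for DNA replication and for mitosis. In the list of DNA replication and entry into S phase, 51 of 59 probes were higher and 8 lower, with a median of 0.20, and 32 probes (54.2%) had no overlap in the higher direction. In the list of mitosis, spindle and kinetochore, 48 of 50 probes were higher, with a median of 0.23, and 25 of the 50 had no overlap in that direction. Among all probes with 1 symbol, 13.7% were higher without overlap. No member passed the threshold. The medians of the lists lay at -0.25 and -0.27 in wild-type clone 2 and between -0.0029 and 0.082 in the other clones. Leaving out wild-type clone 2 gave medians of 0.048 and 0.056, with 37 probes higher to 22 lower and 33 to 17. Both were 0.34 when wild-type clone 9 was the one left out.

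Individual proliferation genes followed 2 patterns. The cyclin CCNE1, which drives entry into S phase, stood level in the wild-type clones (-0.25 and -0.23) and higher in both knockout clones (0.29 and 0.46), a difference of 0.61 ± 0.10, although its other probe gave -0.10. BIRC5, the survivin of the chromosomal passenger complex, read -0.14 and -0.23 against 0.12 and 0.32 (0.41 ± 0.11), and the kinetochore motor CENPE -0.16 and -0.17 against 0.11 and 0.38 (0.41 ± 0.12). By contrast, CDC45, a part of the replicative helicase, read -0.58 in wild-type clone 2 and -0.12 in clone 9 (0.46 ± 0.16). The checkpoint gene MAD2L1 (-0.56 and -0.13), the clamp loader RFC3 (-0.58 and -0.061), the replication initiation factor MCM10 (-0.50 and -0.084) and the mitotic kinase CDK1 (-0.43 and -0.049) also had their lowest clone in wild-type clone 2. Without that clone the differences of CDC45, MAD2L1, RFC3, MCM10 and CDK1 were 0.23, 0.25, 0.19, 0.24 and 0.21.

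DNA damage signalling and repair genes, which overlap in part with the replication programme, had 45 of 58 probes higher and a median of 0.076. Of these probes 25.9% had no overlap in the higher direction and 5.17% in the lower, against 13.7% and 22.9% of all probes with 1 symbol. The median was -0.015 without wild-type clone 2, 0.17 without wild-type clone 9 and 0.12 without knockout clone 21. FANCI, of the Fanconi anaemia pathway that repairs crosslinks, read -0.24 and -0.18 against 0.19 and 0.26 (0.43 ± 0.090), and BARD1, the partner of BRCA1, -0.17 and -0.14 against 0.17 and 0.30 (0.39 ± 0.095). RAD51C, of the homologous recombination machinery, differed by 0.54 ± 0.10 and the exonuclease EXO1 by 0.56 ± 0.15. Other probes gave 0.48, 0.47 and -0.090 for RAD51C and 0.28 and 0.069 for EXO1, and EXO1 stood at 0.37 without wild-type clone 2. For these 4 genes the wild-type clones stood within 0.38 of each other, the widest being EXO1. Of the telomerase and telomere maintenance probes, 22.5% had no overlap in the higher and 12.5% in the lower direction, with the telomerase inhibitor PINX1 at 0.42 ± 0.14 and STN1, of the complex that fills in telomere ends, at -0.36 ± 0.12. The other probes gave 0.19 for PINX1 and -0.065 for STN1, and the leading probes stood at 0.27 without wild-type clone 2 and at -0.22 without wild-type clone 9. Of the 42 probes of p53 targets, 32 were lower and 14.3% were lower without overlap, below the 22.9% of all probes with 1 symbol. In this list 1 probe was at least 2-fold lower, with overlapping clones. GADD45A stood at -0.39 ± 0.18 and MDM2 at -0.18 ± 0.086, with other probes, whose clones overlapped, at -0.35 and -0.14. The arrays of wild-type clone 9 read -0.097 and 0.36 for MDM2. GADD45A was high in wild-type clone 2 (0.55, against 0.043 in clone 9) and stood at -0.13 without it. The list's median of -0.10 became -3.5e-05 without wild-type clone 2, and -0.21 when clone 9 was left out instead.

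Genes driven by NF-kB, among them inflammatory cytokines, were compared next. Of 37 probes of NF-kB driven cytokines and chemokines, 33 were lower and 4 higher, with a median of -0.18, and 11 (29.7%) were lower without overlap and 0 higher. Of 43 probes of NF-kB subunits, feedback and survival targets, 33 were lower, with a median of -0.13, and 15 (34.9%) had no overlap in the lower direction. Among all probes with 1 symbol that share was 22.9%, and it was 27.0% and 25.6% for these lists with each array centred on its median. No member passed the threshold. Wild-type clone 2 was again apart, with list medians of 0.13 and 0.14, and without it the medians were -0.048 and -0.066. Without knockout clone 21 the median of the subunit list was -0.077.

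Interleukin 6 (IL6) gave wild-type values of 1.29 and 1.35 (clone 2) and 0.20 and 0.55 (clone 9), and knockout values of -0.20 and -0.42 (clone 8) and -0.91 and -0.57 (clone 21). All 4 knockout arrays lay below all 4 wild-type arrays, and the difference was -1.37 ± 0.32. The neutrophil chemokine CXCL8 was more even among knockout clones, at -0.40 and -0.49 against 0.97 and 0.42 (-1.14 ± 0.19, with -1.02 by its other probe). PTGS2, the inducible cyclooxygenase, stood at -0.60 and -0.39 against 1.46 and 0.40 (-1.42 ± 0.33, with -1.01 by its other probe). The chemokine CCL20 was mainly low in knockout clone 21 (-1.05, against -0.15 in clone 8). Within the pathway itself, the inhibitor NFKBIA read 0.58 and 0.058 against -0.11 and -0.47 (-0.61 ± 0.21), and the subunits NFKB2 and RELB differed by -0.50 ± 0.16 and -0.42 ± 0.16. The other probes of NFKB2 gave -0.47 and 0.051. Without wild-type clone 2, IL6 stood at -0.91, PTGS2 at -0.89, NFKBIA at -0.35, NFKB2 at -0.28 and RELB at -0.22.

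The promoters of IL6 (chr7:22726950-22727249, plus strand) and NFKBIA (chr14:35404700-35404999, minus strand) are shown as those of a cytokine and of the feedback inhibitor, and matches to the searched motifs are in capitals.
IL6: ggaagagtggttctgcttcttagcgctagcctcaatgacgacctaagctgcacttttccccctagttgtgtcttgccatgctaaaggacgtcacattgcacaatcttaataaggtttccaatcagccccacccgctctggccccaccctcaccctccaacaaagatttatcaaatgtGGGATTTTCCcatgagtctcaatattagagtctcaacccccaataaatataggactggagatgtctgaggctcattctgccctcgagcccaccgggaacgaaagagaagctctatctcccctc
NFKBIA: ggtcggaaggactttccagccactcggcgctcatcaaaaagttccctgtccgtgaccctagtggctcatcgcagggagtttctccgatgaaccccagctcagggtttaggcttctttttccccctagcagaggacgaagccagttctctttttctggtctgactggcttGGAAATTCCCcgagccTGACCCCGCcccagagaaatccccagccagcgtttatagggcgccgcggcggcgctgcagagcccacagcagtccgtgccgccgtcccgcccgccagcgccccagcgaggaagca
IL6 held an NF-kB match beginning 73 bases before the transcript start. NFKBIA held one beginning 81 bases before the start and a match to the antioxidant response element beginning 65 bases before it. Of the genes with a RefSeq promoter, 16.4% held an NF-kB match, and it was held by 11 of 18 in the cytokine list and 16 of 25 in the subunit and feedback list. These genes had been listed as NF-kB targets, so matches in their promoters are a description of the lists.

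**Figure D4:**
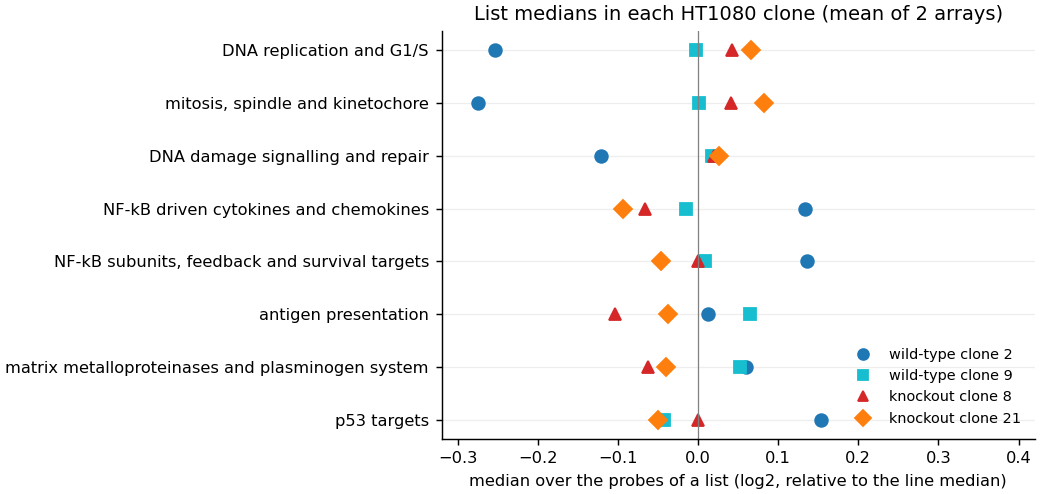
Median over the probes of 8 lists in each HT1080 clone (mean of arrays A and B), on the log2 scale relative to the median of the HT1080 arrays (x axis). Wild-type clone 2 stands apart from the other clones for replication (-0.25), mitosis (-0.27) and cytokines (0.13). The medians separate by genotype in every list shown except p53 targets. For antigen presentation and matrix metalloproteinases they do so with the wild-type clones close to each other.

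Among the lists with at least 20 probes, antigen presentation had the largest share of probes that were lower without overlap. Of its 40 probes 35 were lower, with a median of -0.14, and 17 (42.5%) were lower without overlap, against 1 higher. Among all probes with 1 symbol, 22.9% were lower without overlap. The clone medians were 0.012 and 0.065 in the wild-type clones and -0.10 and -0.037 in the knockout clones, and without any single clone the list's median stayed below 0, from -0.17 to -0.062. HLA-B, a class I molecule that displays peptides to T cells, read 0.35 and 0.76 against -0.52 and -0.34 (-0.99 ± 0.16). HLA-F, a non-classical class I gene, read 0.16 and 0.41 against -0.20 and -0.16 (-0.47 ± 0.11), with 0.13 by its other probe. ERAP2, which trims peptides, differed by -0.42 ± 0.14 and the immunoproteasome subunit PSMB9 by -0.35 ± 0.11. Their other probes gave -0.050 and -0.088, and ERAP2 stood at -0.24 without wild-type clone 2. Class I genes are close relatives and highly variable in sequence, so their probes may not be specific.

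Interferon-stimulated genes, some of which also act in antigen presentation, were divided. Of 55 probes 23 were higher and 32 lower, and 10.9% and 21.8% had no overlap in the higher and lower directions, near the shares of all probes. The antiviral GTPase MX1 read -0.35 and -1.38 against 0.35 and 0.62 (1.35 ± 0.33), while IFITM3, which blocks viral entry, read 0.20 in both wild-type clones against -0.16 and -0.26 (-0.41 ± 0.091). IRF9, a subunit of the interferon-activated transcription factor, differed by -0.60 ± 0.24. MX1 stood at 0.83 without wild-type clone 9, and IRF9 at -0.31 without wild-type clone 2 and -0.38 without knockout clone 8.

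Genes of the matrix and of adhesion differed one by one. In the list of matrix metalloproteinases and the plasminogen system, 19 of 27 probes were lower, 10 of them (37.0%) without overlap. Among all probes with 1 symbol, 22.9% were lower without overlap. MMP9, the gelatinase B that degrades basement membrane, gave wild-type values of 0.37 and 0.20 (clone 2) and 0.48 and 0.47 (clone 9), and knockout values of -0.58 and -0.45 (clone 8) and -0.20 and -0.43 (clone 21). The genotypes did not overlap, and the difference was -0.80 ± 0.12 (limma, adjusted p = 0.743). MMP16 stood at -0.42 ± 0.12, with -0.13 by its other probe, and MMP15 at 0.33 ± 0.11, or 0.21 without wild-type clone 2. LOX, which crosslinks collagen, read 0.99 and 0.22 against -0.22 and -1.37 (-1.40 ± 0.42, and -0.82 without knockout clone 21). The list of collagens and matrix proteins had 14.3% of its 63 probes without overlap in the higher and 15.9% in the lower direction. For all probes with 1 symbol these shares were 13.7% and 22.9%. Among integrins, ITGA6 (-0.73 ± 0.18) and ITGA2 (-0.64 ± 0.13) were lower and ITGA4 (0.68 ± 0.15) higher, without passing, and the other probes of ITGA6 gave -0.31 and -0.11. In that list of integrins, Src kinases and focal adhesions, 4 probes were at least 2-fold higher, all of them CDCP1.

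Cell type markers other than those of connective tissue were included as a check of the clones. Of the mesenchymal markers 10.0% had no overlap in the higher and 25.0% in the lower direction, with ENG at -0.47 ± 0.10, TWIST1 at 0.49 ± 0.17 (0.27 without wild-type clone 9) and CDH2 at 0.42 ± 0.15 (0.25 without knockout clone 21). S100A4 stood at -0.60 ± 0.27, mainly through knockout clone 8, and at -0.21 without that clone. For the epithelial list, with 12 probes higher and 22 lower, the shares were 17.6% and 29.4%. The desmosomal gene DSP stood at 0.65 ± 0.23, with other probes at -0.054 and 0.081 and 0.32 without wild-type clone 2. The desmosomal PKP3 (-0.36 ± 0.16), the laminin LAMB3 (-0.36 ± 0.19) and the claudin CLDN4 (-0.33 ± 0.15) stood on the other side, and without wild-type clone 2 they were at -0.18, -0.080 and -0.12. Other probes gave 0.093 for PKP3 and 0.0028 and 0.19 for LAMB3. Colon epithelium markers had 8 of 13 probes (61.5%) lower without overlap and 1 higher. Retinal pigment epithelium markers had 6 of 17 (35.3%) and 0, and blood and endothelial markers 2 of 16 (12.5%) and 2. Among all probes with 1 symbol, 22.9% were lower and 13.7% higher without overlap. Centring the arrays brought the lower share of the colon list to 38.5% and left the retinal list at 35.3%. The 22.9% is a share before centring, which also reduced the lower count over all probes, from 11977 to 9687. The colon list had a median of -0.049 and the retinal list one of -0.090, next to -0.027 for all probes with 1 symbol. The largest single differences in the colon, retinal and blood lists were small (TFF3 -0.26, SERPINF1 -0.26, or -0.076 without wild-type clone 9, and CD3E -0.18). The part of these markers in any result was not tested. No probe of these 4 lists of other cell types differed 2-fold.

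In the remaining lists, large differences belonged to single genes. In Notch signalling, the target genes HEY2 and HES4 stood on opposite sides (0.76 ± 0.15 and -0.63 ± 0.17), and so did the receptors NOTCH1 (0.36 ± 0.10) and NOTCH3 (-0.44 ± 0.095). HES4 stood at -0.39 without wild-type clone 9. In TGF-beta and BMP signalling, the receptors TGFBR2 (-0.46 ± 0.099) and TGFBR3 (-0.44 ± 0.12) were both lower, and 28.9% of the 45 probes had no overlap in that direction. Heat shock genes were evenly divided by sign alone, with 12 probes higher and 12 lower and a median of 0.029. Without overlap, 37.5% were higher and 16.7% lower, against 13.7% and 22.9% of all probes with 1 symbol. HSPA1B (0.73 ± 0.25) and its cochaperone DNAJB1 (0.51 ± 0.16) stood above 0, and SERPINH1, the collagen chaperone (-0.35 ± 0.089), and the mitochondrial HSPE1 (-0.43 ± 0.17, with 0.12 by its other probe) below. For HSPA1B and DNAJB1 the lowest clone was wild-type clone 9, at -0.86 and -0.41, and without it they stood at 0.34 and 0.32. HSPE1 stood at -0.19 without that clone, and its arrays A and B of knockout clone 21 disagreed, at -0.86 and 0.46. Among growth factors NRG1, a ligand of the ERBB receptors, stood at 0.91 ± 0.28, but its other 6 probes ranged from -0.25 to 0.51, and it stood at 0.49 without wild-type clone 9. The hypoxia gene NDRG1 stood at -0.67 ± 0.19 and the ERK target PHLDA1 at -0.96 ± 0.34, with 0.11 by its other probe. Wild-type clone 9 was the high clone for both, at 0.76 and 1.14, and without it NDRG1 stood at -0.40 and PHLDA1 at -0.44. The cancer-testis genes GAGE7, GAGE12D and GAGE12F, close paralogs, stood at 0.56, 0.54 and 0.49 with no overlap. The zinc finger gene ZNF239 stood at 0.83 ± 0.10, the amino acid transporter SLC7A2 at 0.72 ± 0.11 and SLC16A10 at 1.28 ± 0.44. The other probes of SLC7A2 gave -0.13 and 0.11. SLC16A10 rested on wild-type clone 9, at -1.66 against -0.22 in clone 2, and stood at 0.56 without it. Of the 44 lists, 34 had a median below 0, and 29 after each array had been centred on its own median.

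**Figure D5:**
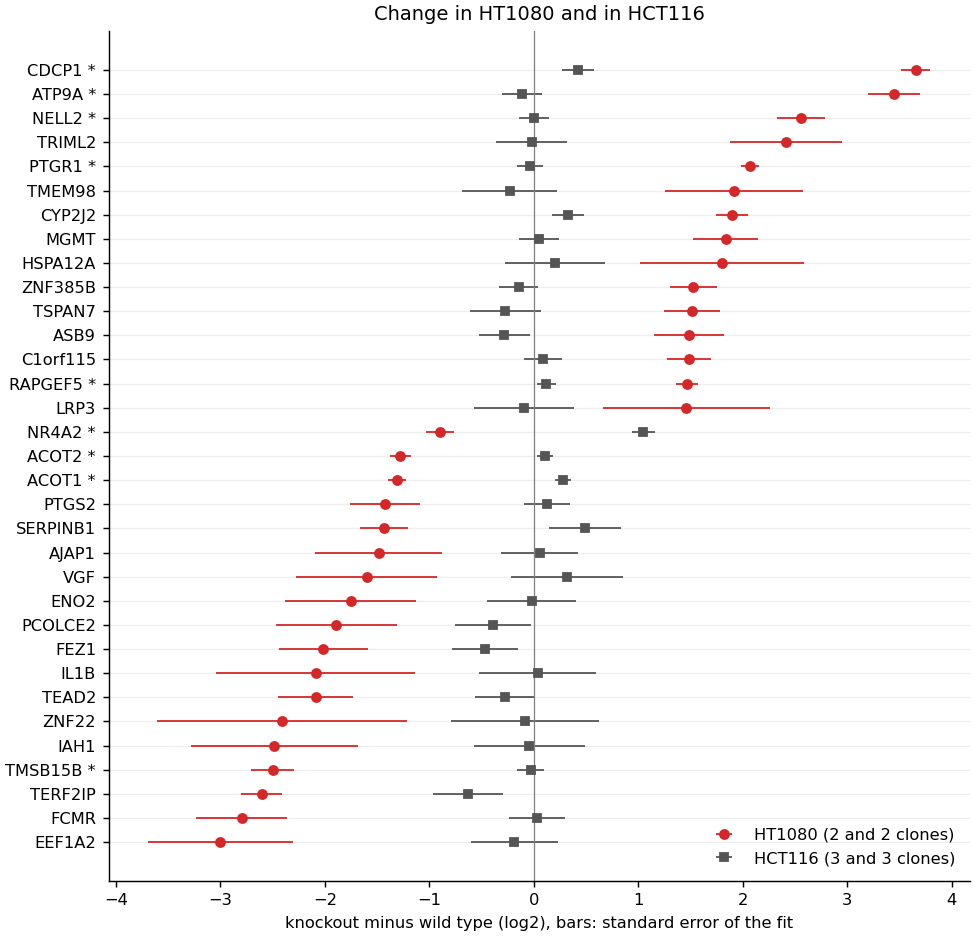
Knockout minus wild-type difference (log2, x axis) of the named genes in HT1080 (red circles) and in HCT116 (grey squares), with the standard error of the fit as bars and an asterisk where the change differed between the lines by the interaction test. CDCP1, ATP9A, NELL2 and PTGR1 lie between 2.07 and 3.65 in HT1080 and between -0.11 and 0.42 in HCT116.

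Whether these differences were shared by another line was tested against HCT116, a colorectal carcinoma line with 3 clones labelled wild type and 3 labelled knockout. The knockout label was less clear there, with TERF2IP at -0.63 ± 0.33 and adjusted p = 0.603 in limma. The change differed between the lines at 14 probes (limma interaction), 8 higher in HT1080 (0.0169%) and 6 lower (0.0127%), and 4653 probes had an unadjusted p under 0.05. CDCP1 differed by 3.23 ± 0.24 between the lines (limma, adjusted p = 0.00119), with 0.42 ± 0.15 in HCT116. ATP9A, NELL2, PTGR1 and RAPGEF5 stood at -0.11, 0.0027, -0.040 and 0.12 in HCT116, and their changes were also higher in HT1080 (limma, adjusted p from 0.00203 to 0.00766). TMSB15B (-0.031 in HCT116), ACOT1 (0.28) and ACOT2 (0.11) were lower in HT1080 by the same test. NR4A2, an orphan nuclear receptor that responds early to growth signals, stood at -0.90 ± 0.13 in HT1080 and at 1.05 ± 0.11 in HCT116, opposite in sign (limma, adjusted p = 0.00203). TERF2IP itself did not pass that test (-1.98, limma, adjusted p = 0.478). Without HCT116 clone 21 the interaction gave 15 higher and 32 lower probes, and without single HT1080 clones 23 to 44 higher and 18 to 71 lower.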

How the data were processed

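RNA of TALEN-made clones had been extracted on RNeasy columns, labelled with biotin by the MessageAmp kit and hybridised to Illumina bead arrays, per the labels. The deposited values, log values taken as log2, were centred for each probe on the median of the arrays of a line when the authors deposited them, as the values show. The log base, background correction and normalization are not given in the sources used here, so no filter on dim probes could be set. Arrays A and B of a clone were averaged, and 2 knockout were compared with 2 wild-type clones over 47323 probes in limma 3.58.1 (R 4.3.3), with Benjamini-Hochberg adjustment at 0.05. P-values therefore rest on the spread between clones, which limma draws toward a spread common to all probes (SD 0.107, with 3.61 degrees of freedom). A small standard error is thus not the spread of that gene's clones alone. The same model with HCT116 gave the interaction. The fit was tested on simulated data.

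Gene symbols came from the platform annotation, updated by Entrez number. Named were the shelterin genes, up to 15 genes a direction with the largest differences among probes without overlap, calls first, and up to 4 such members of each list. The members, lists and motifs were chosen with earlier results of these data known. Promoters came from RefSeq (GRCh38.p14), and 145 of 194 named genes had one. Alternatives covered centring, quantile normalization, single arrays, probe choice, spread and leaving out clones.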

Additional observations from a re-analysis of the deposited data

Results flagged for a closer look

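The knockout change differed between HT1080 and HCT116 for 9 named genes, by the interaction term of limma over all probes. The change in HT1080 exceeded that in HCT116 by 3.23 for CDCP1, 3.56 for ATP9A, 2.56 for NELL2, 2.11 for PTGR1 and 1.35 for RAPGEF5, on the log2 scale. It was lower by the same test for TMSB15B (-2.47), NR4A2 (-1.95), ACOT1 (-1.59) and ACOT2 (-1.39). In HT1080 both knockout clones stood on the same side of both wild-type clones for all 9. Apart from the called CDCP1 and PTGR1, these genes had been named from probes without overlap, so this was fixed by the choice. The interaction calls were lost for RAPGEF5 with second arrays alone (limma, adjusted p = 0.110), for TMSB15B with the mean of its probes (limma, adjusted p = 0.480) and for ACOT2 with first arrays alone (limma, adjusted p = 0.0545).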

How the results depend on the processing

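With 2 clones a genotype, the number of calls moved widely, and the cause was not tested. From 2 higher and 0 lower, it became 9 and 3 with first arrays alone, 7 and 2 with second arrays alone, 17 and 11 with 1 spread shared with HCT116, 4 and 1 with quantile normalization and likewise 4 and 1 with a robust prior, and 0 higher once probes were averaged by gene. Leaving out a clone gave 0 to 58 higher and 0 to 77 lower. TERF2IP passed at -2.58 with first arrays, -2.63 with second arrays and -2.47 with quantile normalization, and ranged from -2.90 to -2.31 without a clone, passing in each case except without knockout clone 8. The 51 probes 2-fold higher became 27 as gene means and 78 to 116 without a clone, and the 65 lower became 90 to 156. Probes without overlap (5547 higher, 11977 lower) became 2848 and 4514 with the most variable probe of a gene, 2765 and 4723 as gene means, 3092 and 5767 in the more variable part of the array, and 6903 lower among probes with 1 symbol, where fewer probes were tested. Without a clone, which leaves fewer samples to overlap, they were 11291 to 13869 and 19402 to 21798. The interaction (8 higher, 6 lower) gave 14 higher with first arrays, 5 higher with the most variable probe and 5 as gene means, and 6 to 44 higher and 6 to 71 lower without a clone.

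Directions turned for small differences. Without a clone, TERF2 ranged from -0.15 to 0.068 (0.059 without wild-type clone 9), ACD from -0.063 to 0.31, POT1 from -0.059 to 0.27, S100PBP from -0.010 to 0.56 and TMSB4X from -0.52 to 0.24 (0.032 without wild-type clone 2). With the most variable probe, ATF4 gave 0.15, SDHC -0.10, LAMB3 0.0028 and RPL36A 0.22, and as gene means POT1 gave -0.020 and ATF4 0.0092. Of 3016 values of named genes under an alternative, 2902 kept direction and side of the threshold. Most named genes lay far from the threshold, and the alternatives of spread leave the difference itself unchanged. Much of that count was therefore fixed in advance. List medians kept their sign in all 12 settings for 23 of 44 lists.

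Array numbers are shared across clones, but the deviations of same-numbered arrays correlated at -0.042 to 0.12, so the numbers were not taken as pairs. With the replicate block and clone as a random effect, 51 probes were called higher and 38 lower, TERF2IP passed at -2.61, and the interaction gave 102 higher and 74 lower. That fit used the arrays themselves, with the same correlation between arrays A and B for all probes. It was 0.22 in HT1080 and 0.26 with HCT116 included. Arrays A and B were thus counted almost as separate replicates, while the number of clones stayed the same. These larger counts therefore do not rest on more clones, and the calls on clone means remain the main result.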

Other observations

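Chromosome 13 stood slightly apart from the other chromosomes. After the clone means had been centred on their median over all probes, its 550 probes had a median of -0.043 in knockout clone 21. Clone medians on the other chromosomes were -0.022 to 0.015. The difference between the genotypes was -0.036 on chromosome 13 and -0.0027 to 0.027 elsewhere. It rested on clone 21, since knockout clone 8 stood at 0.018 on chromosome 13, above wild-type clones 2 (-0.0050) and 9 (0.016). Some gene families were lower in small steps. Keratin probes were lower without overlap in 37.9% of 58, HOX probes in 36.1% of 36 and clustered protocadherin probes in 32.6% of 95. Their medians were -0.085, -0.055 and -0.059. Of all probes with 1 symbol, 22.9% were lower without overlap, and their median was -0.027. With each array centred on its own median, the family medians were -0.064, -0.034 and -0.037, and the shares 36.2%, 33.3% and 30.5%. The 22.9% is a share before centring, which also reduced the lower count over all probes, from 11977 to 9687. No test was made for any of these.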
